A study of Mus musculus with 42 samples.

Results

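Potassium channel genes were followed in wild-type male C57/BL6 mice, adult animals, across 4 nuclei of the hypothalamus and between the fed and the fasted state. The members were the protein-coding genes of the GENCODE mouse annotation whose symbol begins with Kcn, which gave 94 of the 37907 genes in the expression table. Laser-capture microdissection took the paraventricular nucleus (PVN), the arcuate nucleus (ARC), and the dorsomedial (DMH) and ventromedial (VMH) hypothalamus from sections. All groups shared genotype, sex and strain. Their labels separate them by the nucleus and by whether the mice had ad libitum access to food or had been fasted for 24 hours. The fed groups held 5 (ARC), 6 (VMH), 5 (DMH) and 6 (PVN) libraries and the fasted groups 5, 6, 4 and 5 in this order. Whether each library is a separate animal is not in the labels, so p-values measure the spread between these libraries. The captured tissue holds every cell type of a nucleus, so fewer cells of a type and less RNA per cell cannot be told apart in these values.

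Potassium channels let potassium leave the cell and so set the resting potential, the shape of the action potential and the firing rate of a neuron. Voltage-gated Kv channels open on depolarization, inward rectifiers (Kir) pass current near rest and include the ATP-sensitive channels that couple glucose metabolism to firing, and 2-pore channels carry leak current. Calcium- or sodium-activated channels follow firing itself, and in astrocytes Kir channels clear the potassium that active neurons release. In the hypothalamus, potassium channels are targets of insulin, leptin, opioids and other signals of energy state.

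Levels are in RPKM (reads normalised to gene length and library size), a scale on which genes can be compared. Of the 94 genes, 87 reached 1 RPKM in 4 or more libraries and were tested. The other 7 were Kcna7, Kcnj1, Kcnk5, Kcnk7, Kcnk15, Kcnk18 and Kcnv2. The mean over the 42 libraries was at least 10 RPKM for 24 genes and under 1 RPKM for 24 genes. Kcnj10, which encodes the Kir channel of astrocytes, had the highest mean, 59.3 RPKM. It was followed by the Kv4 partners Kcnip4 at 33.9 RPKM and Kcnip3 at 25.5 RPKM, and by the Kv1 pore gene Kcna2 at 24.6 RPKM. Other genes with high means were the Kv4 partner Kcnip1 (21.1 RPKM), the large-conductance calcium-activated pore gene Kcnma1 (19.8 RPKM), and the pore genes Kcna6 (19.8 RPKM), Kcnc4 (19.4 RPKM) and Kcnd2 (18.6 RPKM). Kcnk16 sat in all 42 libraries at the value that a gene without reads takes, and 11 of the tested genes did so in over 50% of the libraries. For Kcnk16 that value was 1.25 RPKM, which passes the limit of 1 RPKM. Not every gene tested is therefore an expressed gene.

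The estimated depth of a library ranged from 1.33 to 13.2 M reads (mean 4.57 M), with 5 libraries under 2.5 M, of which 4 were from the VMH. No pair of libraries was identical. The 12 marker genes of the nuclei, such as Agrp in the ARC, Nr5a1 in the VMH and Oxt in the PVN, each had their highest fed mean in the nucleus they mark. Reads carried no strand information, so reads of overlapping genes cannot be told apart. This touches 49.1% of the exon length of Kcnj13, 39.6% of Kcna6, 31.5% of Kcnmb4, which overlaps its antisense genes, and 31.1% of Kcnj3. For Kcnj14, 30.8% of its 50-base stretches recur in another gene, and its level is uncertain.

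The first question was whether the nuclei differ in these genes. Between the fed nuclei, 35 of the 87 genes (40.2%) differed at an adjusted p under 0.1 (limma, Benjamini-Hochberg over all 33579 genes tested), where 12.4% of all genes and 20.6% of protein-coding genes did. In fasted mice it was 37 genes (42.5%), against 11.9% of all and 19.7% of protein-coding genes. Of the 35 genes, 30 (85.7%) were also called in the fasted mice, which are other libraries, against 61.6% of all genes called in the fed mice, and 30 had their highest mean in the same nucleus in both states. The shares of genes called, for potassium channel genes and for the background, are plotted by comparison.

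**Figure D1:**
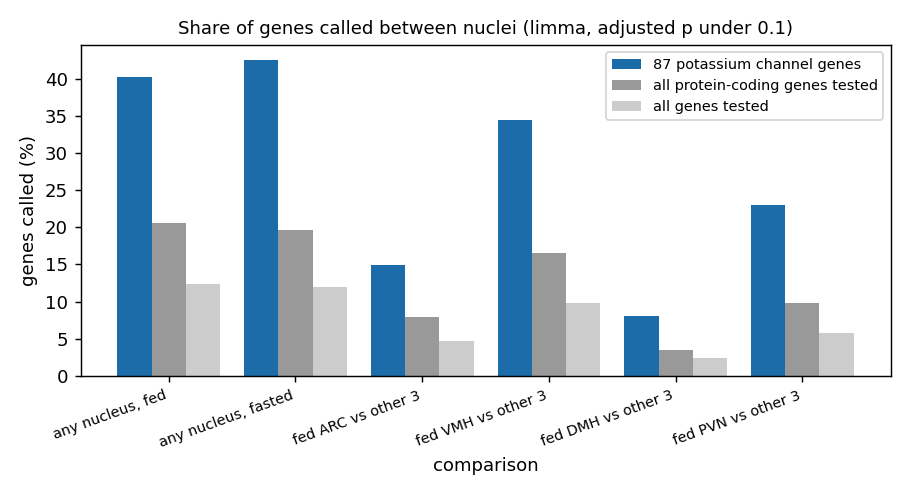
Share of genes called (%, y axis) in each comparison between nuclei (x axis) for the 87 potassium channel genes tested (blue), all protein-coding genes tested (dark grey) and all genes tested (light grey). The blue bar is the highest in each of the 6 comparisons, at 40.2% between the fed nuclei and 34.5% for the fed VMH against the other 3.

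The VMH stood apart. Of the 35 genes, 19 had their highest fed mean in the VMH, against 8 for the PVN and 4 each for the ARC and the DMH. The nucleus of the highest mean was not counted over all genes. Against the mean of the other 3 fed nuclei, the VMH also had the most calls over all genes. These were 3296, with 1934 for the PVN, 1552 for the ARC and 786 for the DMH. Against the mean of the other 3 fed nuclei, 30 genes were called in the VMH (34.5%, against 9.82% of all and 16.5% of protein-coding genes). Of these, 23 were higher (26.4%, against 5.25% of all and 8.48% of protein-coding genes). The 7 lower genes (8.05%) were at the share of protein-coding genes (8.05%, and 4.57% of all genes). The median log2 difference was 0.15 over the 87 genes and 0 over all genes. In the fasted mice 27 genes were called in the VMH (background 9.43%), 24 of them among the 30 (80%, where 58.4% of all genes called in the fed VMH were called again). By pair, 13 of the 23 higher genes differed between the VMH and each of the other nuclei, and none of the 7 lower genes did. Such pair counts, here and below, were not made over all genes. The heat map of the 35 genes shows the VMH block, and smaller blocks for the other nuclei, in both the fed and the fasted mice.

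**Figure D2:**
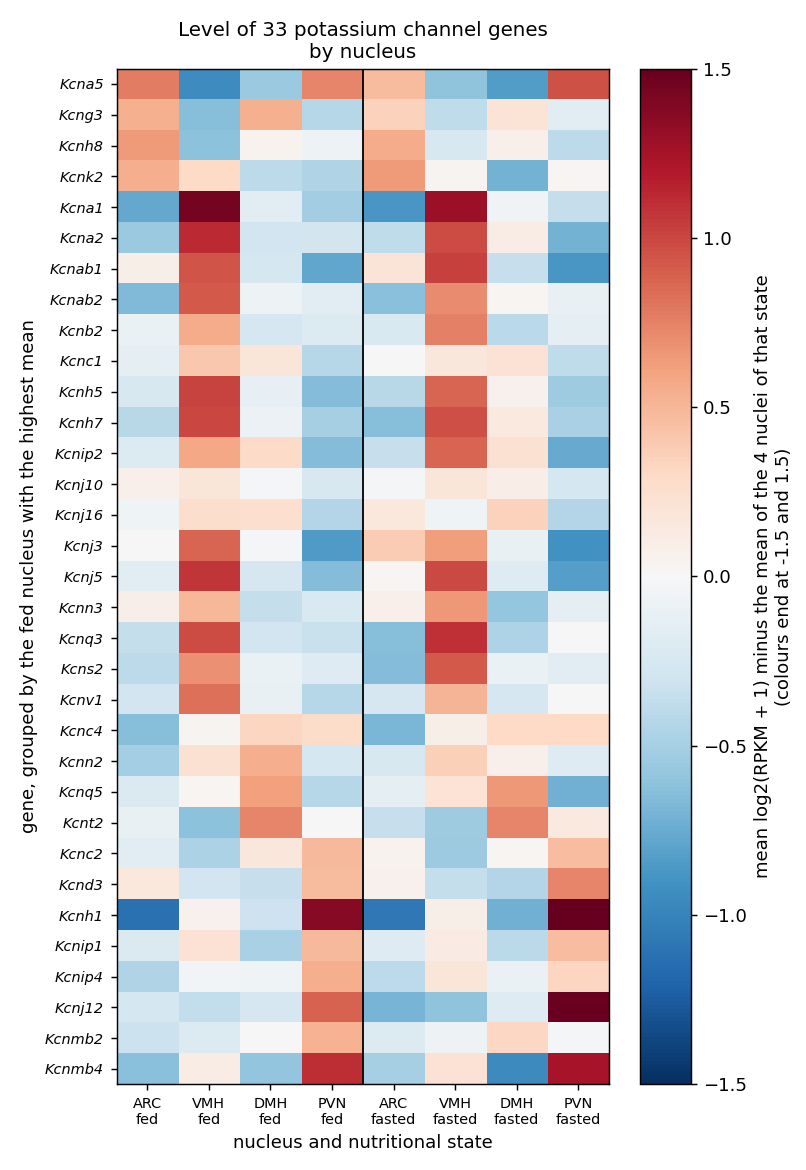
Mean log2(RPKM + 1) of each group minus the mean of the 4 nuclei of the same state (colour), for 33 of the 35 genes called between the fed nuclei (rows, ordered by the fed nucleus with the highest mean), in fed (left of the line) and fasted mice (right). The 17 genes shown whose fed mean was highest in the VMH form the red block in its fed column, and most of it recurs in its fasted column.

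The genes higher in the VMH by the most were pore genes. Kcna1 and Kcna2 encode Kv1 subunits, which form low-threshold channels of the axon. Kcna1 (ENSMUSG00000047976, chr6:126640397-126646384 on GRCm38) in the fed VMH ranged from 9.51 to 17.9 RPKM with a median of 15.3. In the fed ARC its values were 0.990, 1.48, 1.78, 2.14 and 7.05 RPKM, in the fed DMH 2.19, 3.24, 4.38, 5.17 and 5.46 RPKM, and in the fed PVN they ran from 2.23 to 4.06 RPKM with a median of 2.77. Every fed VMH library lay above every other fed library. Its mean was 4.43 times that of the other 3 nuclei (log2 difference 1.92, SE 0.23, adjusted p = 7.87e-08), and 3.79 times in fasted mice (1.70, adjusted p = 1.34e-06).

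Kcna2 (ENSMUSG00000040724, chr3:107101146-107115005) lay between 32.2 and 51.4 RPKM (median 47.8) in the fed VMH, and between 8.83 and 23.8 RPKM in the other fed libraries, again without overlap. Its log2 difference was 1.5 (SE 0.19, adjusted p = 5.35e-07) in fed and 1.31 (adjusted p = 9.41e-06) in fasted mice. Both genes differed between the VMH and each of the other nuclei, which did not pass the test among themselves. The beta subunit genes Kcnab1 (1.27, adjusted p = 1.30e-06) and Kcnab2 (1.22, adjusted p = 1.67e-05), whose proteins dock on Kv1 channels, were higher in the fed VMH too. The other Kv1 genes went different ways. Kcna6 was higher (0.46, adjusted p = 0.0460), while Kcna5 was 3.19 times lower (-1.26, SE 0.21, adjusted p = 5.02e-05). By pair, Kcna6 differed between the VMH and the ARC alone, and it did not pass the overall test between fed nuclei.

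Kcnh7, an ERG channel gene, and Kcnh5, an EAG channel gene, were also higher in the fed VMH. Kcnh7 ranged from 9.72 to 14.8 RPKM (median 12.4) in the fed VMH and from 2.96 to 6.53 RPKM in the other fed libraries (log2 difference 1.33, SE 0.12, adjusted p = 4.74e-10). Kcnh5 ranged from 14.7 to 29.4 RPKM (median 20.5) in the fed VMH and from 3.81 to 12 RPKM elsewhere (1.35, SE 0.18, adjusted p = 1.15e-06). Neither overlapped with another fed nucleus, and both differences recurred in fasted mice (1.29 and 1.17, adjusted p = 1.71e-09 and 2.16e-05).

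The promoters of Kcna2 and Kcnh7 are shown because both genes had their VMH level without overlap in the fed mice. Each is the 250 bases before the RefSeq start on GRCm38.p6, 5′ to 3′ on the strand of the gene, at chr3:107101317-107101566 (+ strand) and chr2:63184288-63184537 (- strand). Their GC content was 62.4% and 67.6%. The median was 58.8% over the 69 members with a promoter sequence and 52.0% over 27025 genes.
Kcna2: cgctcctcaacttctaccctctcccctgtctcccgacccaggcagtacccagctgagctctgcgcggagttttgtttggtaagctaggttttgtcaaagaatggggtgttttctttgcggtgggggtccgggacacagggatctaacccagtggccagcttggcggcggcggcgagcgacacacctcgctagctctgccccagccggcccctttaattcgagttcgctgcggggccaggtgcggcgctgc
Kcnh7: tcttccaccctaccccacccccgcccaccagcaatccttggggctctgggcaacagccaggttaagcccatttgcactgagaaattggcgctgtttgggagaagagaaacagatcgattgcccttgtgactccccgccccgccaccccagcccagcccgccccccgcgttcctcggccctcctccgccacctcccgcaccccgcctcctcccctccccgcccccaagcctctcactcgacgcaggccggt

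G-protein-gated and M-current genes were also among those higher in the fed VMH. Kcnj3 and Kcnj5 encode G-protein-gated Kir subunits (GIRK), which open when inhibitory transmitters bind their receptors. Kcnj5 ranged from 8.55 to 16.9 RPKM (median 12.2) in the fed VMH and from 1.11 to 8.34 RPKM elsewhere (log2 difference 1.42, SE 0.25, adjusted p = 0.000122). Kcnj3 was 26.5 ± 5.24 RPKM in the fed VMH (SD, n = 6) and 7.38 ± 2.09 RPKM in the fed PVN (n = 6). It was called higher in the VMH (1.16, adjusted p = 1.58e-07) and lower in the PVN (-1.14, adjusted p = 4.45e-07), with the ARC and DMH between them and not differing from each other (adjusted p = 1). The other GIRK genes did not follow. Kcnj6 had means of 5.31 to 5.70 RPKM in the 4 fed nuclei (adjusted p = 1), and Kcnj9 had means of 8.79 to 12.7 RPKM, lowest in the VMH (adjusted p = 0.416).

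Kcnq3 encodes a subunit of the M-current channel, whose slow potassium current brakes repetitive firing. Kcnq3 ranged from 15.2 to 25.9 RPKM (median 24.8) in the fed VMH and from 3.01 to 13.5 RPKM elsewhere (1.31, SE 0.17, adjusted p = 4.87e-07). The values of the VMH lay above all others.

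Among the other genes higher in the fed VMH were the modifier genes Kcnv1 (1.11, adjusted p = 0.000165) and Kcns2 (0.91, adjusted p = 0.00038), whose proteins form channels only together with Kv2 subunits, and the Kv2 pore gene Kcnb2 (0.74, adjusted p = 0.00355). The fast Kv3 gene Kcnc1 was higher in the VMH (0.53, adjusted p = 0.00251), and Kcnc2 was lower (-0.63, adjusted p = 0.000143). Also lower in the VMH were Kcng3, a modifier gene (-0.85, adjusted p = 0.0146), Kcnh8, an ELK channel gene (-0.83, adjusted p = 0.0109), Kcnt2, a sodium-activated channel gene (-0.82, adjusted p = 0.00279), Kcnd3, a Kv4 gene (-0.39, adjusted p = 0.000845), and Kcnk9, a 2-pore gene (-0.66, adjusted p = 0.0958). Leaving out each of the 22 fed libraries in turn lost the call of Kcnk9 in 18 cases, and its fasted difference was -1.41 (adjusted p = 8.56e-05). The calls of Kcng3 and Kcnh8 did not recur in fasted mice (-0.51 and -0.31, adjusted p = 0.253 and 0.585). By pair, Kcnh8 differed between the VMH and the ARC alone, Kcnt2 between the VMH and the DMH alone, and Kcnk9 between the VMH and the PVN alone.

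Cell type markers moved with the VMH as well. Of 5 neuron markers, 4 were higher in the fed VMH (median log2 difference 0.55), and their summed level was 1086 to 1240 RPKM there, against 537 to 605 RPKM in the ARC, 604 to 703 RPKM in the DMH and 651 to 821 RPKM for the PVN. Of 5 oligodendrocyte markers, 4 were also higher (median 1.19), with a summed level of 186 to 294 RPKM in the VMH and 62.2 to 150 RPKM elsewhere. The part of the cell makeup in the VMH differences was not tested. Without the 5 libraries under 2.5 M reads, 26 genes were called in the fed VMH, 19 of them higher. The plot by library sets 3 of the VMH genes beside 3 genes of the PVN and the ARC, described next.

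**Figure D3:**
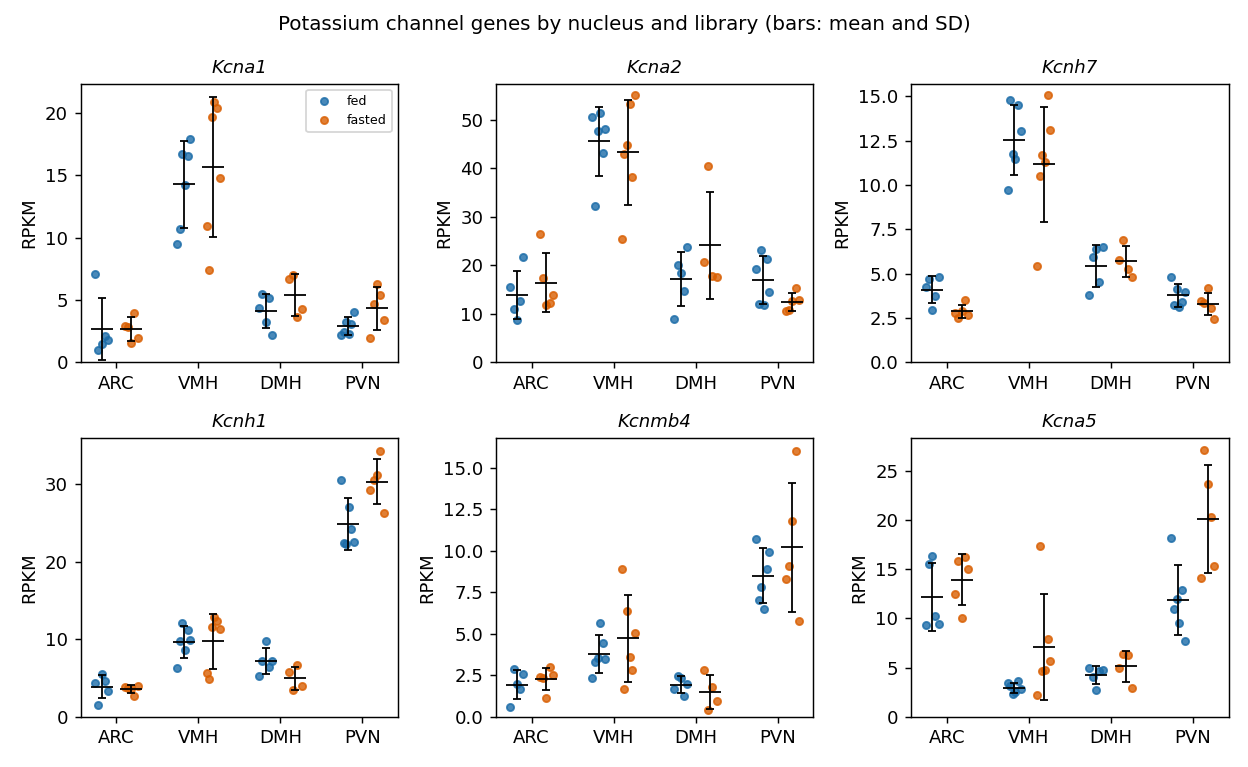
RPKM (y axis) of 6 genes in each library, by nucleus (x axis), fed (blue) and fasted (orange), with mean and SD bars. Kcna1, Kcna2 and Kcnh7 are high in the VMH, Kcnh1 and Kcnmb4 in the PVN, and Kcna5 in the ARC and the PVN.

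The PVN had 20 genes called against the other fed nuclei (23%, against 5.76% of all and 9.81% of protein-coding genes). Of these, 9 were higher and 11 lower (backgrounds 3.18% and 2.58% of all, 5.38% and 4.43% of protein-coding genes). In fasted mice it was 20 genes (background 5.39%), 17 of them the same (85%, where 55.5% of all genes called in the fed PVN were called again). By pair, 5 of the 9 higher and 1 of the 11 lower genes differed from each other nucleus. Kcnh1 (ENSMUSG00000058248, chr1:192190774-192510159), which encodes the EAG1 pore, was the gene with the clearest PVN level. It ranged from 22.3 to 30.6 RPKM (median 23.4) in the fed PVN and from 6.32 to 12.1 RPKM (median 9.86) in the fed VMH. It was 5.24, 6.40, 7.20, 7.21 and 9.76 RPKM in the fed DMH, and 1.57, 3.32, 4.29, 4.56 and 5.47 RPKM in the fed ARC. The PVN did not overlap with any other nucleus, and each pair of nuclei differed except the VMH and the DMH (adjusted p = 0.428). The fed log2 difference of the PVN was 1.81 (SE 0.17, adjusted p = 4.97e-10), and in fasted mice, where the PVN libraries were at 26.3, 29.3, 30.5, 31.2 and 34.4 RPKM, it was 2.28 (adjusted p = 1.96e-11). Its close relative Kcnh5 was lower in the PVN than the mean of the other 3 (-0.87, adjusted p = 0.00166), but by pair it differed from the VMH alone (adjusted p = 0.548 against the ARC and 0.333 against the DMH).

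The promoter of Kcnh1 at chr1:192190527-192190776 (+ strand, GRCm38.p6) is shown with the match to the half-site AAGGTCA of NR5A factors, found on the other strand, in capitals. The VMH marker Nr5a1 encodes such a factor.
Kcnh1: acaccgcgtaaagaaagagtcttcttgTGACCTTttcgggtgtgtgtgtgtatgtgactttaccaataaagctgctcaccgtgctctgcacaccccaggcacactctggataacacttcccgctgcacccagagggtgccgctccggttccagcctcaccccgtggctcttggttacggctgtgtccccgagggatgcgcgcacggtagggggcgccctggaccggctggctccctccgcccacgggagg

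This half-site, searched on both strands, was in 4.35% of the 69 members with a promoter sequence (Kcnf1, Kcnh1 and Kcnj16) and in 4.70% of the promoters of 27025 genes. The full cAMP response element TGACGTCA and the FOXO motif GTAAACA were in 0 of the 69 promoters, against 1.77% and 3.54% of all genes.

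Kcnmb4 encodes the neuronal beta subunit of the large-conductance calcium-activated (BK) channel. It ranged from 6.48 to 10.7 RPKM (median 8.38) in the fed PVN and from 0.607 to 5.67 RPKM in the other fed libraries, without overlap (log2 difference 1.48, SE 0.22, adjusted p = 9.10e-06). Its antisense genes share part of its exons, and their reads are included. The BK pore gene Kcnma1 did not pass the test between fed nuclei, with means of 16.2 to 22.3 RPKM (adjusted p = 0.246). Of the other BK beta genes, Kcnmb2 was higher in the fed PVN (0.70, adjusted p = 0.00517) at 1.90 ± 0.830 RPKM (n = 6), while Kcnmb1 had fed means of 0.424 to 0.882 RPKM and did not pass (adjusted p = 0.839). Kcnmb3 was above the value of a gene without reads in 4 of the 42 libraries, so its RPKM gives no level.

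Kcnj12, an inward rectifier gene of the Kir2 family, ranged from 4.04 to 10.5 RPKM (median 7.11) in the fed PVN and had means of 2.5 to 2.68 RPKM elsewhere (1.18, SE 0.26, adjusted p = 0.00314). One VMH library, at 5.94 RPKM, and one DMH library, at 4.07 RPKM, reached into the PVN range. In fasted mice the PVN difference was 1.98 (adjusted p = 5.92e-06). Of the A-type current, which delays the next action potential, pore and partner genes were called in both directions. The Kv4 pore gene Kcnd3 (0.64, adjusted p = 3.91e-07) and its partner genes Kcnip1 (0.66, adjusted p = 0.000254) and Kcnip4 (0.73, adjusted p = 3.45e-06) were higher in the fed PVN, and Kcnip2 was lower (-0.87, adjusted p = 0.00778). Kcnab1 was 3.06 times lower in the PVN (-1.03, adjusted p = 7.08e-05), and Kcnj5 was lower too (-0.87, adjusted p = 0.0377), a call lost without PVN-Fed library 5 or 6 (adjusted p = 0.181 and 0.131) and by pair passed against the VMH alone. Blood vessel markers were higher in the PVN, with 4 of 5 endothelial and mural markers called (median log2 difference 1.01) and a summed level of 123 to 164 RPKM against 42.8 to 99.5 RPKM in the other fed libraries. Their part in the PVN differences was not tested.

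In the ARC, 13 genes were called against the other fed nuclei (14.9%, against 4.62% of all and 7.98% of protein-coding genes). The 3 higher genes (3.45%) were near the background (2.38% of all and 3.99% of protein-coding genes). The other 10 were lower (11.5%, against 2.24% of all and 3.99% of protein-coding genes). In fasted mice 17 genes were called (background 5.55%), of which 8 were among the 13 (61.5%, near the 60.5% of all genes called in the fed ARC that were called again). Kcna5, a Kv1 gene, was 9.29, 9.42, 10.3, 15.6 and 16.3 RPKM in the fed ARC and 7.73 to 18.1 RPKM (median 11.4) in the fed PVN. It was only 2.27 to 3.59 RPKM (median 2.97) in the fed VMH and 2.67, 4.08, 4.61, 4.76 and 4.95 RPKM in the fed DMH. The ARC and the PVN did not differ from each other (adjusted p = 1), nor did the VMH and the DMH (adjusted p = 0.599), while every pair across these groups was called. Against the mean of the other 3, the ARC difference was 1.02 (SE 0.22, adjusted p = 0.00358) and that of the PVN 0.97 (adjusted p = 0.00271). In fasted mice the ARC difference was 0.64 and missed the threshold (adjusted p = 0.135).

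Kcnk2 encodes TREK-1, a mechanically and lipid-gated 2-pore channel. It was 16.4, 23.8, 25.8, 26.3 and 31.6 RPKM in the fed ARC (log2 difference 0.73, SE 0.15, adjusted p = 0.00242) and was higher there in fasted mice as well (0.86, adjusted p = 0.000359). It was the one 2-pore gene of the 10 tested that passed the test between fed nuclei. Kcnh8 was the remaining gene higher in the ARC (0.85, adjusted p = 0.0260), and by pair the ARC differed from the VMH (adjusted p = 0.00192) but did not pass against the DMH (0.404) or the PVN (0.227). Among the genes lower in the ARC, Kcnh1 was 3.62 times lower (-1.49, SE 0.18, adjusted p = 2.5e-07), followed by Kcna1 (-1.02, adjusted p = 0.00750), Kcnab2 (-0.88, adjusted p = 0.00595), the Kv3 gene Kcnc4 (-0.85, adjusted p = 0.00283) and Kcnmb4 (-0.84, adjusted p = 0.0302, and 0.203 without ARC-Fed library 1). By pair, Kcnh1 and Kcnc4 were the 2 genes that differed between the ARC and each other nucleus. Kcna1 and Kcnab2 differed from the VMH alone, with adjusted p from 0.369 to 1 against the DMH and the PVN, and Kcnmb4 from the PVN alone. In the ARC 3 of 5 neuron markers and 3 of 5 oligodendrocyte markers were also lower, and their part was not tested.

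The DMH had 7 genes called (8.05%, against 2.34% of all and 3.48% of protein-coding genes). Of the 7, 3 were higher and 4 lower (backgrounds 1.33% and 1.01% of all, 1.68% and 1.8% of protein-coding genes). Without DMH-Fed library 1 or without DMH-Fed library 3, 4 genes were called. In fasted mice 8 genes were called (background 1.67%), 6 of them the same (85.7%, where 31.7% of all genes called in the fed DMH were called again). By pair, 0 of the 7 differed between the DMH and each other nucleus at the same limma threshold, and Kcnq5 and Kcnmb4 differed from the PVN alone. Kcnt2, which encodes the sodium-activated Slick channel, was 6.07, 6.09, 8.10, 8.63 and 10.1 RPKM in the fed DMH and 1.45 to 6.03 RPKM in the other fed libraries, without overlap (log2 difference 0.97, SE 0.20, adjusted p = 0.00389). The same difference was found in fasted mice (0.98, adjusted p = 0.0119). Kcnq5, a further M-current gene, was higher at 5.57 ± 1.42 RPKM (n = 5) against means of 2.36 to 3.49 RPKM elsewhere (0.82, adjusted p = 0.0442), and missed the threshold without DMH-Fed library 3 or 4 (adjusted p = 0.141 and 0.133). Kcnn2, a small-conductance calcium-activated (SK) channel gene, was higher in fed (0.73, adjusted p = 0.0579) and in fasted mice the difference was 0.10 (adjusted p = 1). Its fed call was lost without DMH-Fed library 1, 2 or 4 (adjusted p = 0.194, 0.136 and 0.104). The genes lower in the DMH were Kcnd3 (-0.46, adjusted p = 0.000948), Kcnip1 (-0.65, adjusted p = 0.00208), Kcnk2 (-0.52, adjusted p = 0.0825) and Kcnmb4 (-0.78, adjusted p = 0.0839). The calls of Kcnk2 and Kcnmb4 there were each lost in 12 of the 22 fits that left out 1 fed library, and both genes were lower in the fasted DMH (-0.94 and -1.28, adjusted p = 0.00113 and 0.00367).

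Kcnj10 and Kcnj16, the Kir genes typical of glia, also differed between nuclei. Kcnj10 had fed means of 76.3 RPKM in the VMH, 71.2 RPKM in the ARC, 66.0 RPKM in the DMH and 56.8 RPKM in the PVN, and the VMH and the PVN were the one pair of 6 that passed the test (log2 difference 0.42, SE 0.10, adjusted p = 0.00726). Without the 5 shallow libraries Kcnj10 no longer passed the test between fed nuclei (adjusted p = 0.182). Kcnj16 was lower in the fed PVN (-0.59, SE 0.14, adjusted p = 0.00878), at 14.5 ± 3.99 RPKM (n = 6) against 18.6 ± 2.01 RPKM in the ARC (n = 5), 24.3 ± 6.56 RPKM in the VMH (n = 6) and 23.6 ± 3.39 RPKM in the DMH (n = 5).

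The ATP-sensitive pore genes Kcnj11 and Kcnj8 were low and did not pass the test between fed nuclei. Their no-read values, 0.951 and 0.718 RPKM, were near their lowest fed means. Kcnj11, the neuronal pore, had fed means of 1.26 to 2.69 RPKM (adjusted p = 0.863). Kcnj8, the pore of vessel mural cells, had fed means of 1.10 to 3.33 RPKM (adjusted p = 0.334). Its log2 difference of the ARC from the PVN was -0.84 (SE 0.38, adjusted p = 0.379). Of their regulatory subunits, Abcc9 was higher in the fed PVN (1.02, adjusted p = 4.10e-05) and Abcc8 was lower in the fed ARC (-0.75, adjusted p = 0.0847). The SK genes Kcnn1 (0.74, adjusted p = 0.0312) and Kcnn3 (0.66, adjusted p = 0.0449) were higher in the fed VMH, at means of 2.23 and 16.3 RPKM. Over all 4 fed nuclei Kcnn1 did not pass the test (adjusted p = 0.109), and the call of Kcnn3 (adjusted p = 0.0954) was lost in 13 of the 22 fits that left out 1 fed library, without the 5 shallow libraries (adjusted p = 0.203) and under 3 other settings (0.104 to 0.108). Kcnn4 was above its no-read value in 8 of the 42 libraries (adjusted p = 0.921).

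The list of 27 other genes that act with these channels, such as auxiliary subunits and anchoring proteins, had 15 called between fed nuclei (background 12.4% of all and 20.6% of protein-coding genes). Against the other 3 fed nuclei, 14 were called in the VMH (9 higher and 5 lower). The share called there in either direction was 9.82% of all and 16.5% of protein-coding genes. In the PVN 10 were called (5 higher and 5 lower), against 5.76% of all and 9.81% of protein-coding genes. Ank3, which encodes the ankyrin that holds Kv7 channels at the axon initial segment, was higher in the VMH (0.75, adjusted p = 6.82e-11), as was the Kv1 partner gene Lgi1 (0.75, adjusted p = 1.35e-07). Lrrc55, a BK gamma subunit gene, went the other way, lower in the VMH (-1.18, adjusted p = 1.46e-08) and higher in the PVN (0.69, adjusted p = 0.00034). The Kv4 partners split between the nuclei. Dpp10 was higher in the VMH (0.64, adjusted p = 2.20e-06) and lower in the PVN (-0.88, adjusted p = 5.01e-09), and Dpp6 was higher in the PVN (0.47, adjusted p = 0.000146).

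The second question was whether a 24-hour fast changed these genes. By limma, 0 of the 87 genes passed the test within a nucleus, where of all genes 19 (0.0566%) did in the ARC, 44 (0.131%) for the VMH, 8 (0.0238%) for the DMH and 24 (0.0715%) for the PVN. An unadjusted p under 0.05 was found for 10 potassium channel genes in the ARC (11.5%) and 12 in the VMH (13.8%). In the DMH it was 4 genes (4.6%) and in the PVN 10 (11.5%). For the ARC, VMH, DMH and PVN the shares of all genes were 7.5%, 7.31%, 6.48% and 5.53%. Those of protein-coding genes were 8.05%, 9.43%, 5.33% and 6.93%. Over the 40 genes with a mean of at least 5 RPKM, the median size of the log2 difference was 0.22 (ARC), 0.18 (VMH), 0.16 (DMH) and 0.15 (PVN), with a median SE of 0.20 to 0.23. The estimate was no larger than its own SE for 22 of these 40 genes (ARC), 22 (VMH), 23 (DMH) and 23 (PVN). The interaction of nucleus and fasting was called for 0 of the 87 genes by limma, and for 2 of all genes (0.00596%). At an unadjusted p under 0.05 were 5 of the 87 (5.75%), near the 4.39% of all and 5.66% of protein-coding genes.

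Kcnj10 (ENSMUSG00000044708, chr1:172341210-172374085) had a lower mean after the fast in all 4 nuclei. In the fed ARC it was 57.5, 64.7, 74.4, 76.4 and 83.2 RPKM, and in the fasted ARC 37.7, 46.6, 51.8, 54.7 and 57.5 RPKM (log2 difference -0.52, SE 0.11, adjusted p = 0.121). In the VMH the fed libraries ranged from 62.9 to 92.7 RPKM (median 76.5) and the fasted from 50.5 to 61.8 RPKM (median 56.6), with a difference of -0.42 (SE 0.10, adjusted p = 0.140). The 2 states did not overlap in the VMH and met at the edge in the ARC.

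In the PVN the fed libraries ranged from 50.3 to 69.6 RPKM (median 54.3), and the fasted were at 32.8, 40.4, 42.4, 43.8 and 48.1 RPKM, without overlap, for Kcnj10 (-0.44, SE 0.11, adjusted p = 0.180). In the DMH the fed libraries were at 54.0, 65.5, 67.4, 68.7 and 74.4 RPKM and the fasted at 50.8, 51.2, 53.8 and 56.7 RPKM, with an overlap (-0.30, SE 0.12, adjusted p = 0.634). The two-sided exact permutation p was 0.0159 (ARC), 0.00216 (VMH), 0.0238 (DMH) and 0.00216 (PVN), of which 0.00216 is the smallest these groups allow. Non-overlapping lower genes made up 0.146% of all genes in the VMH and 0.182% in the PVN. Within the 3 sets of libraries that the values separate, the Kcnj10 estimate was below 0 in all 3 sets of the ARC, the VMH and the PVN and in both DMH sets that have fasted libraries, from -0.26 to -1.0.

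Averaged over the 4 nuclei, a comparison added after these values were seen, Kcnj10 fell by 0.42 on the log2 scale (SE 0.056, adjusted p = 3.37e-05). It remained called without any one of the 42 libraries (adjusted p from 1.18e-05 to 0.000117). In this comparison 3 of the 87 genes passed the test (3.45%, against 0.5% of all and 0.878% of protein-coding genes). It was 2 to 5 genes without any one library, the 5 without DMH-Fast library 4. Nuclei probably share mice, since the study cut several nuclei from a brain, and the labels do not tie libraries to mice, so these p-values may be too small.

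The promoter of Kcnj10 at chr1:172340960-172341209 (+ strand, GRCm38.p6) is shown because it is the member with the clearest fasting difference, and it holds none of the 3 motifs searched.
Kcnj10: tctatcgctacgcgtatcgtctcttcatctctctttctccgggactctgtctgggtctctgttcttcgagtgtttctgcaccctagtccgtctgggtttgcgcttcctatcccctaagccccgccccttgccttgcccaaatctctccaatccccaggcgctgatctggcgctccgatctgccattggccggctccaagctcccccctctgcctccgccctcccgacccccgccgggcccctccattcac

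Kcnj16 encodes the subunit that pairs with the Kcnj10 product in glia. In the VMH it ranged from 15.5 to 33.2 RPKM (median 24.8) in fed and from 10.6 to 18 RPKM (median 15.1) in fasted mice, with an overlap (log2 difference -0.65, SE 0.17, adjusted p = 0.210, exact permutation p = 0.0108). The estimates were -0.33 in the PVN, -0.24 in the DMH and -0.10 in the ARC (adjusted p from 0.965 to 1), and -0.33 averaged over nuclei (adjusted p = 0.151).

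Of 6 astrocyte markers, Aqp4, the water channel of astrocyte endfeet, was the only one called lower after the fast, in the VMH (-0.94, SE 0.19, adjusted p = 0.0477) and averaged over nuclei (-0.59, SE 0.10, adjusted p = 0.00131). The other estimates averaged over nuclei were -0.31 for Gfap, -0.09 for Slc1a2, 0.03 for Slc1a3, 0.07 for Aldh1l1 and 0.23 for Gjb6, and none of these passed the test. The Gfap estimate was below 0 in each nucleus, at -0.16 (ARC), -0.32 (VMH), -0.15 (DMH) and -0.60 (PVN), with adjusted p from 0.959 to 1. The summed level of the 6 markers was 244 to 307 RPKM in the fed and 196 to 249 RPKM in the fasted VMH, 203 to 234 and 194 to 234 RPKM for the ARC, 223 to 278 and 254 to 276 RPKM for the DMH, and 191 to 256 and 194 to 221 RPKM for the PVN. No value in the table is 0. The part of the astrocyte share in the Kcnj10 difference was not tested. The plot of RPKM by state shows the libraries of both Kir genes and of Kcnt1 and Kcnf1, described next, and the plot of fasting differences sets both Kir genes beside the 6 markers.

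**Figure D4:**
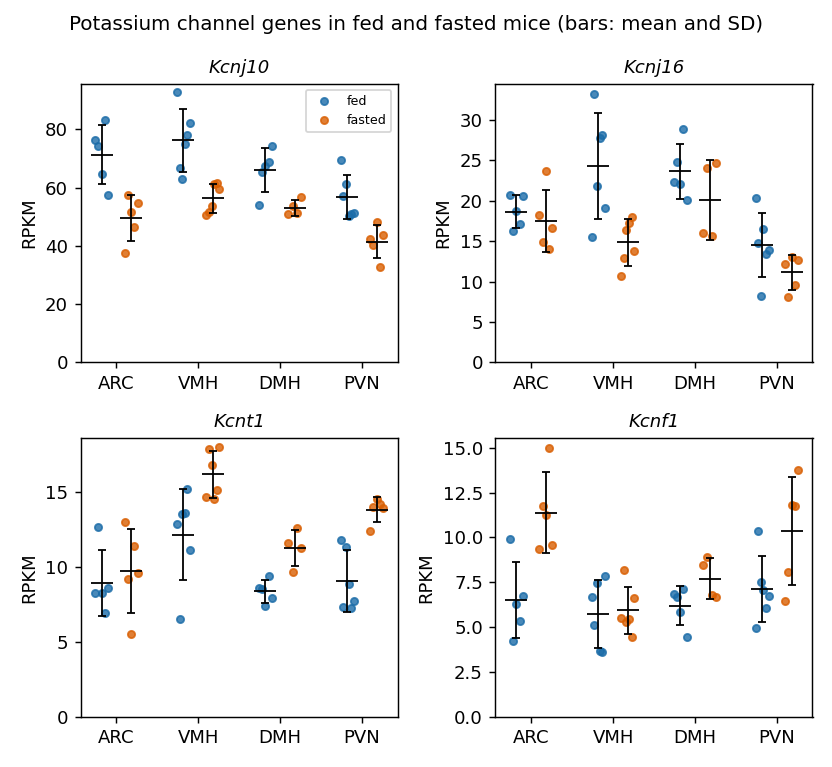
RPKM (y axis) of 4 genes in each library, by nucleus (x axis), fed (blue) and fasted (orange), with mean and SD bars. The fasted mean of Kcnj10 is below the fed mean in all 4 nuclei and the fed and fasted libraries of Kcnt1 do not overlap in the DMH and the PVN. The fed and fasted libraries of Kcnf1 overlap in each nucleus, and none of the 4 genes passed the test within a nucleus.

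**Figure D5:**
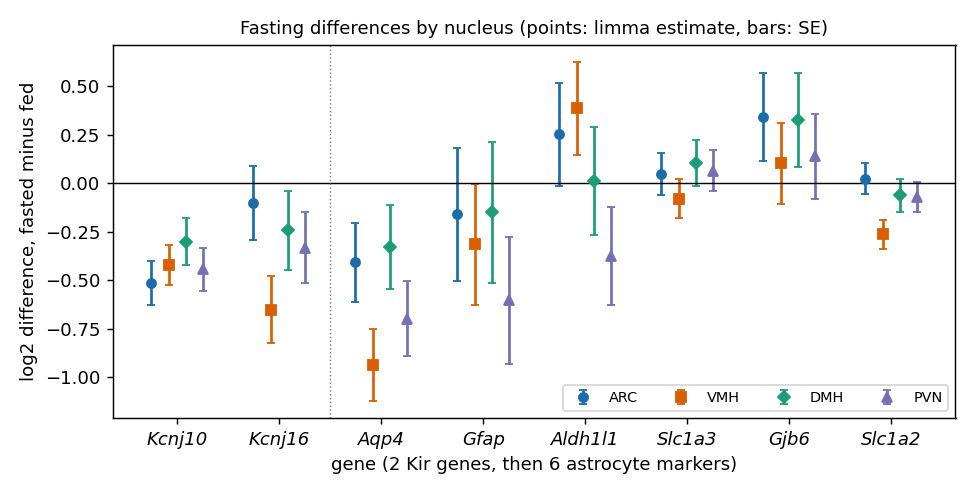
Fasted minus fed difference on the log2(RPKM + 1) scale (y axis; limma estimate with SE bars) of Kcnj10 and Kcnj16 and of 6 astrocyte markers (x axis), by nucleus (colour and shape). Kcnj10, Kcnj16, Aqp4 and Gfap lie below 0 in all 4 nuclei, Gjb6 lies above 0 in all 4, and Aldh1l1, Slc1a3 and Slc1a2 lie on both sides of 0.

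Kcnt1 encodes the sodium-activated Slack channel, a current that follows bursts of firing. In the PVN it ranged from 7.26 to 11.8 RPKM (median 8.30) in fed mice and was 12.4, 13.9, 14.0, 14.2 and 14.6 RPKM in fasted mice. In the DMH it was 7.42, 7.92, 8.52, 8.58 and 9.42 RPKM fed and 9.67, 11.2, 11.6 and 12.6 RPKM fasted. Neither nucleus showed an overlap, as for 0.22% of all genes in the PVN in this direction. The differences were 0.58 in the PVN (SE 0.16, adjusted p = 0.353, exact permutation p = 0.00649), 0.42 in the VMH (adjusted p = 0.449, exact permutation p = 0.00866) and 0.39 in the DMH (adjusted p = 0.762, exact permutation p = 0.00794). In the ARC it was 0.09 (adjusted p = 1), and the sets of libraries there disagreed in sign (0.60, -0.46 and 0.39). Averaged over the nuclei, Kcnt1 rose (0.37, SE 0.083, adjusted p = 0.0296) and stayed called without any one library (adjusted p from 0.00372 to 0.0595).

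Kcnf1 encodes a silent subunit that modifies Kv2 channels. In the ARC it was 4.23, 5.32, 6.30, 6.76 and 9.88 RPKM in fed and 9.35, 9.58, 11.2, 11.8 and 15.0 RPKM in fasted mice, with an overlap (log2 difference 0.75, SE 0.20, adjusted p = 0.277, exact permutation p = 0.0238). In the PVN the means were 7.11 ± 1.83 RPKM (n = 6) and 10.4 ± 3.0 RPKM (n = 5), in the DMH 6.19 ± 1.09 RPKM (n = 5) and 7.69 ± 1.13 RPKM (n = 4), and in the VMH 5.72 ± 1.88 RPKM (n = 6) and 5.92 ± 1.30 RPKM (n = 6). The averaged difference was 0.39 (SE 0.10, adjusted p = 0.0860), a call that was lost without 25 of the 42 libraries in turn and with the 3 sets of libraries as a term (adjusted p = 0.107).

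Other members gave values short of the threshold. In the ARC the 2-pore gene Kcnk1 was 12.7 ± 3.42 RPKM in fed and 23.0 ± 5.36 RPKM in fasted mice (n = 5 each; 0.81, adjusted p = 0.296), and Kcne1l, of the KCNE auxiliary family, was 9.85 ± 4.71 and 3.81 ± 1.86 RPKM (n = 5 each; -1.16, adjusted p = 0.390). Kcnn2 was 2.91 ± 1.16 RPKM fed and 5.44 ± 2.21 RPKM fasted in the ARC (n = 5 each; 0.72, adjusted p = 0.543), and its averaged difference was 0.45 (adjusted p = 0.134). In the VMH Kcna5 was 2.95 ± 0.524 RPKM fed and 7.09 ± 5.34 RPKM fasted (n = 6 each; 0.83, adjusted p = 0.325), with 1 fasted library at 17.3 RPKM, and Kcne3, another KCNE gene, had a difference of -0.50 (adjusted p = 0.422), with a no-read value in most libraries (above it in 12 of 42).

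In the DMH the Kv4 partner gene Kcnip1 was 12.5 ± 1.09 RPKM fed (n = 5) and 16.2 ± 0.157 RPKM fasted (n = 4), without overlap (0.35, adjusted p = 0.762, exact permutation p = 0.00794), and the ELK gene Kcnh3, above its no-read value in 17 of the 42 libraries, had a difference of 0.45 (adjusted p = 0.582). Among all genes in the DMH, 0.685% were higher and 0.468% lower without overlap, the latter including Kcnj14. This is the nucleus where the median depth was 3.57 M reads in fed and 5.74 M reads in fasted libraries. The part of depth was not tested. In the PVN Kcnmb2 was 1.90 ± 0.830 RPKM fed (n = 6) and 0.739 ± 0.317 RPKM fasted (n = 5; -0.71, adjusted p = 0.381), and Kcnk2 was 11.9 ± 2.16 and 17.9 ± 4.49 RPKM (0.54, adjusted p = 0.623). The ATP-sensitive pore gene Kcnj11 was 2.34 ± 1.87 RPKM fed and 4.36 ± 1.10 RPKM fasted in the VMH (n = 6 each; 0.80, adjusted p = 0.569), and Kcnj8 had differences of -0.09 to 0.18 over the nuclei (adjusted p = 1 in each). None of the 27 partner genes was called for fasting within a nucleus. Averaged over the nuclei, Lrrc55 (-0.37, adjusted p = 0.0296) and Gnb1, a G-protein beta subunit gene (-0.18, adjusted p = 0.0268), fell.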

How the data were processed

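RNA was extracted from laser-captured ARC, VMH, DMH and PVN tissue of fed and fasted mice, amplified, and sequenced as single-end reads. The values the authors deposited are RPKM, per gene and library. The submitters' processing notes name CASAVA 1.7, TopHat2 2.0.11, Cufflinks 2.2.1, edgeR and limma, and the build GRCm38. The study also removed outlier samples. The lowest values of each gene recur between libraries, and placed about 5 added reads at a mean depth of 4.57 M reads in the values, which understates the fold change of low genes. They also separate the libraries into 3 sets of 10, 16 and 16, whose means had been removed. The sets are inferred from the values and no label names them. DMH-Fast has 0 libraries in the first set. Depths are estimates, and per library, 97.7% to 98.9% of low values were within 0.05 of a whole number of reads above the lowest value.

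In place of the generalized linear model that the study ran on counts, which RPKM values do not allow, limma 3.58.1 (R 4.3.3) was used on log2(RPKM + 1), and every adjusted p in the text is from it. Genes with at least 1 RPKM in at least 4 of 42 libraries were kept (33579 genes). The model had 1 mean per group (8 groups), with an intensity trend and Benjamini-Hochberg adjustment over all these genes. An adjusted p under 0.1 is a call. Differences are on the log2(RPKM + 1) scale. Single values were also compared with a two-sided exact permutation test. Libraries were treated as independent, although nuclei probably share mice, so p-values averaged over nuclei may be too small. Comparisons between nuclei ignored this pairing, and their p-values may be too large or too small. Tested on simulated ARC data over 33579 genes, a log2 change of 1 was found in 78.0% of 118 genes and a log2 change of 2 in 98.8% of 82 genes. The changed genes were drawn only from those with a mean log2(RPKM + 1) over 2. These shares therefore do not hold for lower genes or for smaller changes. The simulation also changed more genes than the 19 called for fasting in the ARC. With fewer changed genes the Benjamini-Hochberg adjustment is stricter, so the shares may be too high for the real data.

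Symbols and positions came from GENCODE M21 (GRCm38). Promoters came from RefSeq (GRCm38.p6). Those on chromosome 18 were left out, and 69 of the 94 members then had a promoter sequence. Named genes were those called for fasting or the interaction, up to 5 called higher and 5 lower in each fed nucleus, the 4 with the smallest fasting p in each nucleus, whole functional groups, and the 10 with the highest mean. The Kv1 to Kv4 pore, auxiliary and modifier genes and the partners named beyond this were chosen after their values were seen, as relatives of a named gene. A few genes that these rules would name are not reported here by name, and they stay in the counts. The members and lists were chosen with earlier results of these data known. The comparison averaged over nuclei and the fits without shallow libraries were added after the data were seen. Alternatives varied the pseudocount (0.1 and 5), the filter, the scaling, library weights, a term for the 3 sets, a replicate block, the trend, each nucleus fitted alone, and each library left out in turn. Figures were drawn with matplotlib 3.10.9 in Python 3.11.15.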

Additional observations from a re-analysis of the deposited data

Results flagged for a closer look

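In 65 groups of 4 to 6 libraries of the named genes, a library that stands apart by Dixon's test was found in 3, where chance gives about 1 group in 20. Kcnh8 was 1.92 RPKM in ARC-Fed library 4, below the 2.98 to 3.41 RPKM of the other fed ARC libraries. The same gene was 1.74 RPKM in VMH-Fed library 4, above the 0.317 to 0.683 RPKM of the other fed VMH libraries. Kcnt1 was 12.4 RPKM in PVN-Fast library 1, below the 13.9 to 14.6 RPKM of the other fasted PVN libraries. The estimated depths of these libraries were 4.86, 4.30 and 2.95 M reads. Of the 12 genes with the smallest fasting p, 0 moved one way in every library of a nucleus and the opposite way in every library of another.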

How the results depend on the processing

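No count or named gene reversed direction under any alternative. For fasting, 1 gene was called in the ARC with genes above their no-read value in at least 10 libraries (Kcnj10, adjusted p = 0.0802), 1 with libraries scaled to the same median (Kcnj10, adjusted p = 0.0949) and 1 with array weights (Kcnf1, adjusted p = 0.0915), against 0 in the fit reported. Array weights also gave 3 in the PVN (Kcnt1, Kcnj10 and Kcna5, adjusted p = 0.0113, 0.0539 and 0.0602). Averaged over the 4 nuclei, 6 genes were called with that no-read filter and 6 with array weights, against 3. Why these settings differ was not tested. Leaving out 1 library at a time gave 34 to 37 genes between fed and 33 to 39 between fasted nuclei, and by fed nucleus 11 to 15 (ARC), 24 to 32 (VMH), 4 to 8 (DMH) and 19 to 24 (PVN). For fasting it gave 0 to 1 in the ARC (Kcnj10, without ARC-Fast 2, ARC-Fast 5 or ARC-Fed 5), 0 to 1 in the VMH (Kcnj10 without VMH-Fed 3, Kcna5 without VMH-Fast 1), and 2 to 5 averaged over nuclei. The DMH and PVN fasting counts and the interaction stayed at 0 in each case. Of the named regional calls, Kcnk9 in the VMH was lost in 18 of 22 such fits, Kcnmb4 and Kcnk2 in the DMH in 12 each, Kcnn2 in the DMH in 3, and Kcnn3 between fed nuclei in 13. Correlations between the fed and the fasted library of the same number in a nucleus ran from -0.11 to 0.054 over 20 pairs, and 0 were over 0.1. Fed and fasted libraries come from different mice, so this cannot show whether nuclei of a mouse share a number. That was not tested. With the replicate block, 35 genes were called between fed nuclei, 34 between fasted, 13 for the ARC, 27 for the VMH, 6 for the DMH, 20 for the PVN, 0 for fasting in each nucleus and 2 averaged over nuclei. Low genes limit the rest, since 11 tested members had no reads in over 50% of libraries, and a fasting difference near 0.2 on the log2 scale was about the size of its SE.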
